A study of Mus musculus with 22 samples.

Results

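Solute carriers are membrane proteins that move small molecules and ions across the plasma membrane and the membranes of organelles, and their gene symbols start with Slc and a family number, followed by a letter and the member's number. The genes described here are the 148 genes of this kind that reached a mean of at least 5 CPM (counts scaled by the library total) across all 22 libraries of mouse TH2 cells. The table held 49671 genes, 379 of them with an Slc symbol, and 305 of those had at least 1 count. Another 7 transporters were left out by name, namely Slc2a1, Slc2a3, Slc16a1, Slc16a3, Slc7a5, Slc7a11 and Slc3a2. The choice used the mean level over both groups together and made no use of the difference between them. Just inside the threshold were Slc29a3 at 5.49 CPM, Slc35c1 at 5.35 CPM and Slc5a6 at 5.33 CPM, and just outside it were Slc7a4 at 4.603 CPM and Slc43a1 at 4.55 CPM. Both groups averaged at least 5 CPM for 142 of the 148 genes. The remaining 6, Slc26a10, Slc29a3, Slc30a2, Slc4a3, Slc5a6 and Slc9a5, did so in 1 group only. All but 1 are protein coding, and 4 carry an Slc symbol without being carriers. These are the scaffold protein Slc9a3r1, Slc7a6os, Slc4a1ap and the pseudogene Slc2a4rg-ps.

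TH2 cells are CD4 T helper cells that make type 2 cytokines such as interleukin 4 and interleukin 13, and here they were polarized in culture from T cells of wild-type Balb/c mice. The mice were male and female and came from families raised on feeds with different amounts of vitamin D3. Their age when cells were taken is not in the labels. In the calcitriol cultures, 100 nM calcitriol, the hormone form of vitamin D, was present for the last 24 hours before RNA was taken on day 5, and 11 libraries were made. The other 11 libraries came from vehicle cultures given 2% ethanol. Whether the calcitriol cultures held the same ethanol is not said in the labels, and neither is the mouse, sex, feed or culture of a library, so the p-values measure the spread between libraries, which may be partly technical.

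Carriers are grouped into families by sequence, and members of a family tend to share a class of substrate. Ion carriers of families 4, 9 and 12 set cell volume, chloride and pH. Families 30 and 39 move zinc out of and into the cytosol, and family 25 serves the inner membrane of mitochondria. Activated T cells are known to take up glucose, amino acids and iron through such carriers. Calcitriol acts through the vitamin D receptor, a transcription factor that binds DNA with the retinoid X receptor at paired half-sites.

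Promoter bases are shown for 3 genes among the 6 with the largest changes, for which a RefSeq promoter entry on GRCm38.p6 with bases upstream of the annotated gene start could be printed. They run up to the base before the gene start, and capitals mark a nuclear receptor half-site.
Slc4a3 (chr1:75546212-75546265, plus strand): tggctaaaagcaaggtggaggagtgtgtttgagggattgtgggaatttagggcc
Slc26a10 (chr10:127180646-127180832, minus strand): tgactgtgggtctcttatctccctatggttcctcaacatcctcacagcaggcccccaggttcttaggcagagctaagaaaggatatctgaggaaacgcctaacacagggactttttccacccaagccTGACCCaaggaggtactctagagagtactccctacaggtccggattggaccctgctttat
Slc13a3 (chr2:165473231-165473447, minus strand): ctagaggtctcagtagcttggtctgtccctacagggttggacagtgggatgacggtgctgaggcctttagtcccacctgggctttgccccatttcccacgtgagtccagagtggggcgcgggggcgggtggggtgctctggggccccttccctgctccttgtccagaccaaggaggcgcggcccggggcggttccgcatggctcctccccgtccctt
Both strands were searched for AGGTCA as the first form of the half-site, then for GGGTCA as its common variant, for AGTTCA as the second form, and for GGTTCA as the variant of that one, and overlapping matches were counted. Slc26a10 holds 1 match, TGACCC, which is GGGTCA on the other strand, and the stretches of Slc4a3 and Slc13a3 hold none. Over windows of 250 bases before the start to 50 bases after it, at least 1 of these words occurs in 38.6% of 32851 mouse promoters and in 35.5% of the 152 promoter entries that matched 114 of the 148 genes. A pair of half-sites in the same direction 3 bases apart occurs in 13 of all promoters, or 0.0396%, and in 0 of the 152. These are matches of letters in short windows and say nothing of binding.

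The total count per library lay between 3214171 and 12431051 in calcitriol libraries and between 3618784 and 20258430 in vehicle libraries. Summed T and TH2 markers (Cd3e, Cd4, Gata3, Il4, Il13) stood at 1030 to 1270 CPM in calcitriol libraries, against 1190 to 1430 CPM in vehicle libraries. Of these 5, Cd3e was called higher and Cd4 and Il13 were called lower in the fit of all 22 libraries. Summed markers of B cells reached at most 5.14 CPM in calcitriol libraries and 6.74 CPM in vehicle libraries, and those of CD8 cells at most 9.53 and 8.36 CPM. Myeloid, NK, mast cell and erythroid markers each summed to at most 1.2 CPM in calcitriol libraries and 0.961 CPM in vehicle libraries, 1 of 2 NK markers and 1 of 4 erythroid markers were at 0 throughout. Of the 19 markers of other cells, 17 were below the filter on low counts and so were not tested, and Cd8b1 and Cd79b were tested and not called. In such bulk samples a change in the share of a cell type and a change in RNA per cell cannot be told apart. Within each group some libraries stood apart: on the first component of the deviations from the group means, which held 36.2% of the variance of 500 genes, calcitriol replicates 1 to 4 and vehicle replicates 1 to 4 lay on one side and the other 7 of each group on the other. Replicate numbers follow the order of the record, the labels pair no libraries, and what sets these libraries apart is not in the labels. Where leaving out replicates 1 to 4, or replicates 1 and 2, of both groups ended the call of a gene described below, this is said beside it or here. Slc11a2, Slc16a6, Slc30a5, Slc39a11, Slc39a13 and Slc6a6 lost their call both ways.

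Calcitriol changed 57 of the 148 genes, 38.5%, with 29 higher and 28 lower (edgeR quasi-likelihood test, Benjamini-Hochberg adjusted p under 0.05, fitted on 11905 genes). Of all genes tested, 31.5% were called, 16.1% higher and 15.5% lower, and among the 9901 with a mean of at least 5 CPM the share was 32.9%, so the share among the solute carriers lay close to that of the whole transcriptome. The median log2 change was 0.01 over the 148 genes and -0.01 over all genes tested. Most changes were small: 41 of the 57 were under 0.5 on the log2 scale, and the median size of a called change was 0.33, against 0.35 among all called genes. A change of at least 1 was called for 6 of the 148, Slc12a2 and Slc4a3 higher and Slc26a10, Slc15a3, Slc30a2 and Slc13a3 lower, while 3.27% of all genes tested were called with a change of that size. Of these, Slc4a3, Slc26a10 and Slc30a2 averaged at least 5 CPM in 1 group only. They passed the level threshold through the group where they were higher, so the 6 and the 3.27% are not a like comparison. Without replicates 1 to 4 of both groups 58 genes were called, 30 higher and 28 lower, against 30.1% of all genes, and 48 of the 57 were among them. Tested against a fold of 1.2 rather than no change, 18 of the 148 were called, against 9.79% of all genes, with 5 higher and 13 lower. With libraries that resembled each other summed into 6 samples a group, 39 of the 57 were called, against 17.9% of all genes. The other 18 had edgeR adjusted p of 0.0573 to 0.196 there, and they include Slc4a11, Slc12a4, Slc39a13, Slc11a2, Slc30a5, Slc39a11, Slc48a1, Slc7a3, Slc38a1, Slc25a45, Slc25a44, Slc25a20, Slc25a12, Slc10a3, Slc17a9, Slc16a6 and Slc6a6. Scaling by library totals alone, which moved the median of all genes to -0.08, gave 20 higher and 40 lower, with 11.1% of all genes called higher and 24.2% lower. None of the 57 changed sign under that scaling.

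**Figure D1:**
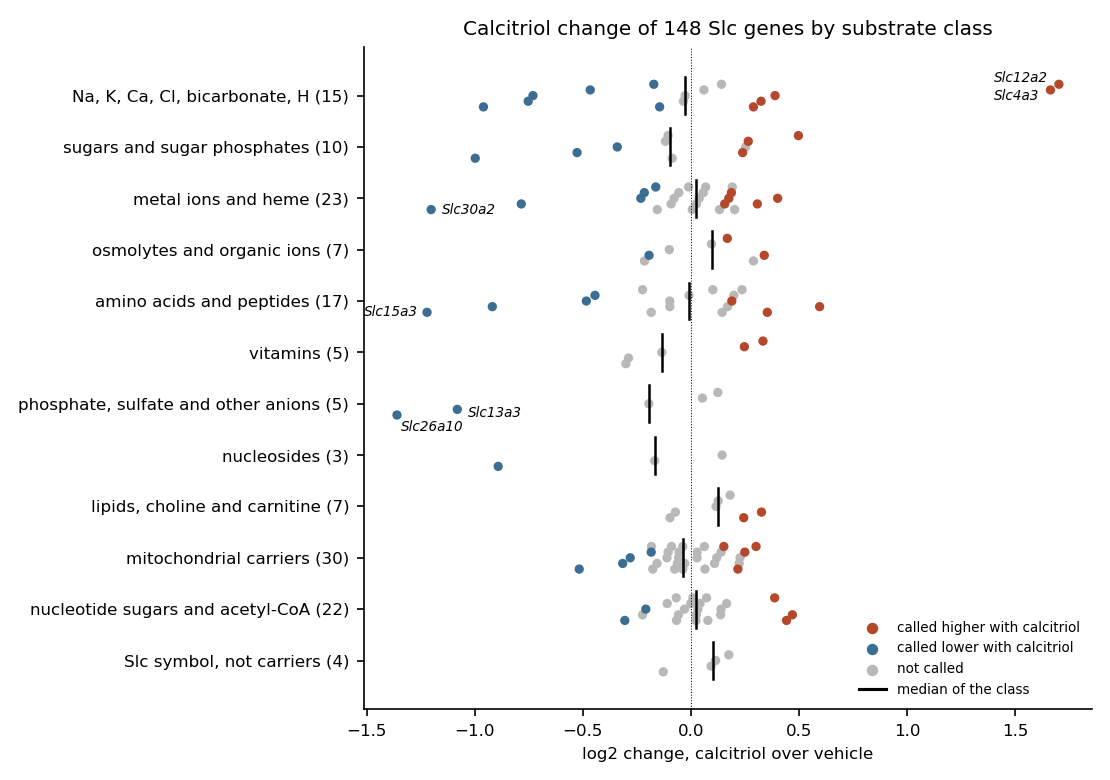
Log2 change (calcitriol over vehicle, horizontal axis) of each of the 148 genes, 1 point per gene, in rows by substrate class with the number of genes in brackets. Red and blue points were called higher and lower by edgeR, grey points were not called, and black bars are class medians, which lie between -0.20 and 0.13 in every class.

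The carriers of sodium, potassium, calcium, chloride, bicarbonate and protons had the largest share of calls of any substrate class. It was 11 of 15 or 73.3%, with 5 higher and 6 lower, against 31.5% of all genes tested and 32.9% of those with a mean of at least 5 CPM. The called genes include Slc4a3 and Slc9a5, which averaged at least 5 CPM in 1 group only. They passed the level threshold through the group where they were higher, so the class share and the shares of all genes are not a like comparison. With alike libraries summed, 8 of the 15 were called, against 17.9% of all genes. The class median was -0.03, so the calls went both ways. Scaling by library totals also gave 5 higher and 6 lower. Leaving out replicates 1 to 4 gave 3 higher and 5 lower, in a fit that called 30.1% of all genes.

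Slc12a2 on chromosome 18 encodes the cotransporter NKCC1, which brings sodium, potassium and chloride into the cell, and it showed the largest change of all 148 genes. Its lowest, median and highest levels were 46.1, 72.6 and 92.0 CPM (TMM-normalised, as all levels below) in calcitriol libraries, against 15.3, 23.1 and 25.2 CPM in vehicle libraries. Every calcitriol library lay above every vehicle library, and the lowest calcitriol values were in replicates 1 to 4, at 46.1 to 61.2 CPM. The mean was 71.4 ± 14.95 CPM with calcitriol and 22.2 ± 3.12 CPM with vehicle (SD, n = 11 each), a 3.25-fold difference. On the log2 scale this is 1.70 ± 0.11 (SE; 95% interval 1.48 to 1.92; edgeR adjusted p = 2.25e-12).

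Slc4a3 (chr1:75546266-75562172), the chloride/bicarbonate exchanger AE3, was scarce with vehicle and had a rise of nearly the same size. It measured 6.56, 9.51 and 19.0 CPM at its lowest, median and highest in calcitriol libraries, against 2.60, 3.25 and 4.64 CPM in vehicle libraries. The groups did not overlap here either, and the highest calcitriol value was that of replicate 2. The log2 change was 1.66 ± 0.16 (95% interval 1.33 to 2.00; edgeR adjusted p = 5.33e-09).

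The sodium/bicarbonate cotransporter Slc4a7 (NBCn1; chr14:14702279-14799940), which brings bicarbonate into the cell, went the other way. Its levels were 96.0, 134 and 183 CPM in calcitriol libraries and 187, 228 and 257 CPM in vehicle libraries (lowest, median, highest). The highest calcitriol library lay just under the lowest vehicle library, so the groups were apart by a narrow margin. It fell by 0.73 ± 0.09 on the log2 scale (edgeR adjusted p = 4.76e-07).

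Within family 4, Slc4a8, a sodium-driven chloride/bicarbonate exchanger, rose by 0.39 ± 0.09 and Slc4a11 by 0.32 ± 0.09, while the exchanger Slc4a2 had 0.14 ± 0.08 and was not called. Family 12 was also divided. Among the potassium-chloride cotransporters, which let chloride out, Slc12a7 fell by 0.47 ± 0.10 and Slc12a4 by 0.15 ± 0.05. Slc12a9 had a change of -0.04 ± 0.10 and was not called. The calls of Slc4a8, Slc4a11 and Slc12a4 were lost without replicates 1 to 4, with adjusted p of 0.0531, 0.0614 and 0.0984 in edgeR. Slc12a4, the cotransporter KCC1, had 53.8, 58.0 and 63.4 CPM (lowest, median, highest) in calcitriol libraries against 58.6, 63.5 and 71.7 CPM in vehicle libraries, with wide overlap.

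Of the sodium/proton exchangers, Slc9a5 (NHE5) had 2.74, 3.71 and 8.11 CPM in calcitriol libraries, against 6.31, 9.06 and 9.89 CPM in vehicle libraries (lowest, median, highest), and 9 of 11 calcitriol libraries lay below every vehicle library. Its log2 change was -0.96 ± 0.16 (edgeR adjusted p = 2.75e-05). Slc9b2 (NHA2) fell by 0.75 ± 0.13, whereas the Golgi exchanger Slc9a8 had 0.06 ± 0.06 and was not called. The mitochondrial sodium/calcium exchanger Slc8b1 had -0.03 ± 0.12 and was not called.

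**Figure D2:**
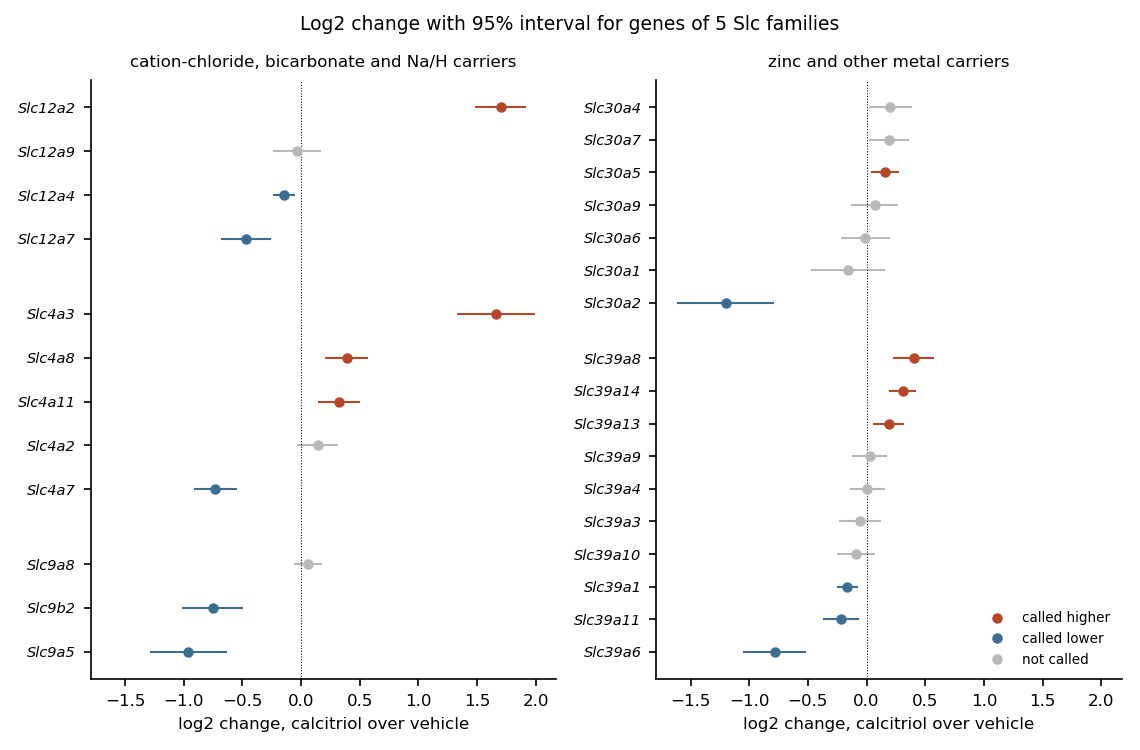
Log2 change (calcitriol over vehicle, horizontal axis) with its 95% interval for carriers of families 12, 4 and 9 (left panel) and of the zinc families 30 and 39 (right panel). Red and blue were called higher and lower by edgeR and grey was not called; Slc12a2 and Slc4a3 stand alone near 1.7, and both zinc families hold members on either side of 0.

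Kinases and pump subunits that work with these carriers were among 30 partners and substrate handlers, of which 29 were tested and 7 were called higher and 5 lower, 41.4%, against 31.5% of all genes. WNK-pathway kinases are known to phosphorylate and activate NKCC1. Wnk1 had 0.03 ± 0.05 and was not called, while its effector kinases Stk39 and Oxsr1 fell by 0.52 ± 0.09 and 0.23 ± 0.04. The sodium pump subunit Atp1b3 rose by 0.16 ± 0.04. Chp1, a cofactor of sodium/proton exchangers, fell by 0.27 ± 0.08. The creatine kinase Ckb averaged 311 ± 28.0 CPM with calcitriol and 207 ± 15.3 CPM with vehicle, a log2 change of 0.59 ± 0.05.

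Of the sugar and sugar phosphate carriers, 6 of 10 were called, 3 higher and 3 lower, against 31.5% of all genes tested. Slc2a6 (chr2:27021363-27027998), the lysosomal glucose transporter GLUT6, changed most. It measured 16.7, 19.5 and 35.8 CPM in calcitriol libraries, against 31.2, 40.7 and 52.7 CPM in vehicle libraries (lowest, median, highest). All calcitriol libraries but replicate 2 lay below every vehicle library. It fell by 0.998 ± 0.11 on the log2 scale (edgeR adjusted p = 7.02e-08).

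Slc5a3 (chr16:92058322-92087473), the sodium/myo-inositol cotransporter by which cells accumulate this osmolyte, was apart between groups. Its levels were 28.8, 31.9 and 44.8 CPM in calcitriol libraries and 45.4, 47.5 and 57.8 CPM in vehicle libraries, and it fell by 0.53 ± 0.07 (edgeR adjusted p = 2.57e-06). The highest calcitriol library came within 1 CPM of the lowest vehicle library. Mrps6, which shares 159 exon bases with it on the same strand, was called lower by 0.26 ± 0.07, and reads of that stretch cannot be assigned with certainty.

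Family 37 is placed with the sugar phosphate carriers by family number, and the substrate of each member was not examined. Slc37a3 had 26.2, 34.1 and 46.8 CPM in calcitriol libraries against 15.7, 24.0 and 30.8 CPM in vehicle libraries, with 7 of 11 calcitriol libraries above every vehicle library. It rose by 0.50 ± 0.09, and Slc37a1 fell by 0.34 ± 0.07. The glucose-6-phosphate translocase Slc37a4 had -0.09 ± 0.11 and Slc37a2 had 0.25 ± 0.11, and neither was called. Slc2a9, a urate carrier, rose by 0.27 ± 0.07. Slc50a1, a sugar carrier of the SWEET family and the most abundant of the class per length, had 72.8, 84.5 and 95.3 CPM in calcitriol libraries against 60.9, 69.9 and 81.5 CPM in vehicle libraries and rose by 0.24 ± 0.06. Slc2a8 and Slc45a4 were not called, at -0.12 ± 0.12 and -0.11 ± 0.11.

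**Figure D3:**
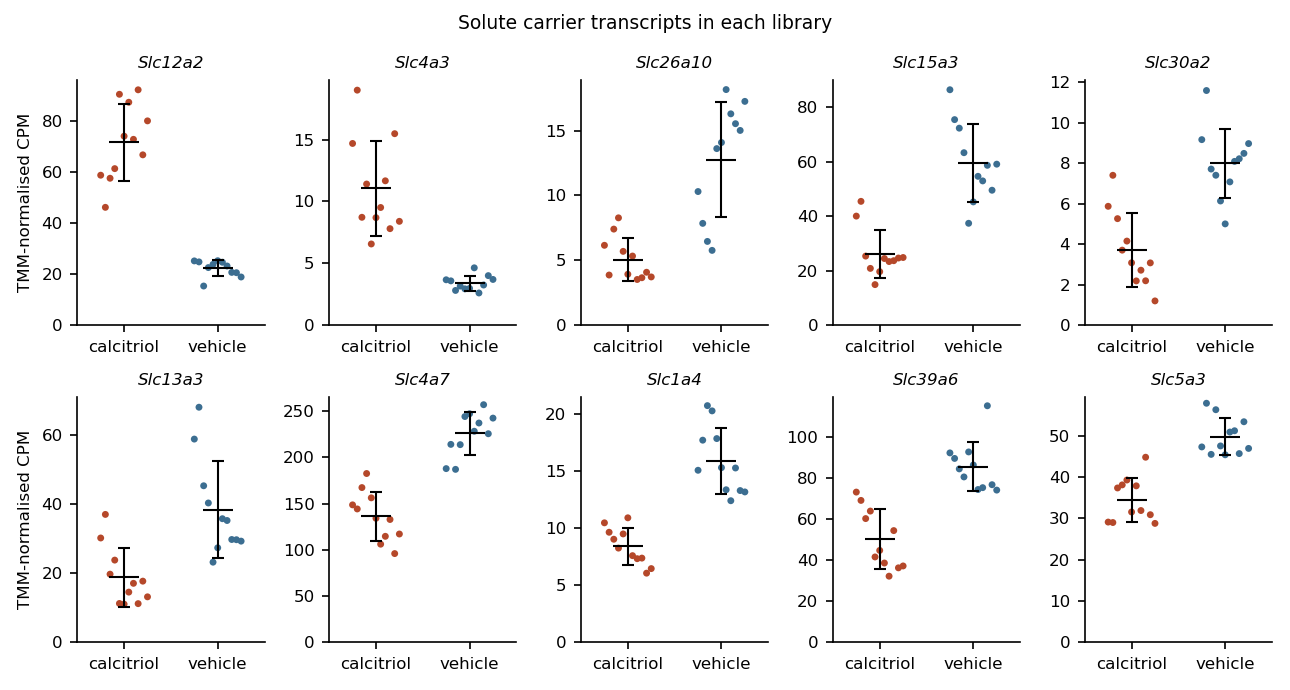
TMM-normalised CPM (vertical axes, each from 0) in each of the 11 calcitriol and 11 vehicle libraries for 10 genes, with mean and SD bars. They are the 6 called genes with a change of at least 1 and the others whose groups do not overlap; Slc12a2 and Slc4a3 are higher with calcitriol, and the other 8 are lower.

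Groups that did not overlap at all were found for 6 of the 148 genes, Slc12a2 and Slc4a3 higher and Slc4a7, Slc1a4, Slc39a6 and Slc5a3 lower with calcitriol. Of all genes tested, 4.36% had groups apart in this way, 2.77% higher and 1.59% lower. Slc4a7, Slc1a4, Slc39a6 and Slc5a3 are described by library because of this separation, and were picked after their values were seen.

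Carriers of metal ions and heme numbered 23, of which 5 were called higher and 5 lower, or 43.5% against 31.5% of all genes tested. Without replicates 1 to 4 they were 2 and 4, in a fit that called 30.1% of all genes. Among the 17 zinc carriers of families 30 and 39, 4 were called higher and 4 lower, or 47.1%, with a median of 0.01. These shares include Slc30a2, which averaged at least 5 CPM with vehicle only, so they are not a like comparison with all genes. The importers of family 39 had 3 called higher and 3 lower. The exporters of family 30 had 1 called each way, and the rise, that of Slc30a5, was lost in 13 of 22 fits that left out 1 library. Slc39a8 (ZIP8), a plasma membrane importer of zinc, manganese and iron, had 55.6, 68.9 and 84.7 CPM in calcitriol libraries against 41.4, 49.6 and 65.2 CPM in vehicle libraries, with 6 of 11 calcitriol libraries above every vehicle library. Its log2 change was 0.40 ± 0.09 (edgeR adjusted p = 0.000532). Slc39a14, a close relative with the same metals, rose by 0.31 ± 0.06 and Slc39a13 by 0.19 ± 0.06. The call of Slc39a13 was lost without replicates 1 to 4 (edgeR adjusted p = 0.0559).

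Slc39a6 (ZIP6) on chromosome 18 was lower with calcitriol. It measured 32.3, 44.9 and 73.3 CPM in calcitriol libraries, against 74.3, 84.6 and 115 CPM in vehicle libraries (lowest, median, highest). The groups were apart by about 1 CPM, since calcitriol replicates 1 to 4 were its highest calcitriol libraries, at 60.4 to 73.3 CPM. It fell by 0.79 ± 0.13 (edgeR adjusted p = 4.70e-05), and by 1.05 without replicates 1 to 4. Slc39a1 (ZIP1), the most abundant of the class per length, had 128, 146 and 159 CPM in calcitriol libraries against 149, 164 and 173 CPM in vehicle libraries and fell by 0.16 ± 0.04. Slc39a11 was called lower by 0.22 ± 0.08 with all libraries, but its change was -0.10 without replicates 1 to 4 (edgeR adjusted p = 0.439), and the call was also lost without replicates 1 and 2 and in 3 of 22 fits that left out 1 library. Slc39a3, Slc39a4, Slc39a9 and Slc39a10 were not called, at -0.06 ± 0.09, 0.01 ± 0.07, 0.03 ± 0.07 and -0.09 ± 0.08.

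The zinc exporter Slc30a2 (ZnT2; chr4:134343181-134354484), which loads zinc into vesicles, was scarce and had the largest fall of the class. It had 1.199, 3.08 and 7.41 CPM in calcitriol libraries and 5.01, 8.10 and 11.6 CPM in vehicle libraries (lowest, median, highest). In both groups replicate 2 was the highest, and 8 of 11 calcitriol libraries lay below every vehicle library. The log2 change was -1.20 ± 0.20 (edgeR adjusted p = 3.18e-05). Slc30a5, a zinc carrier of the secretory pathway, rose by 0.16 ± 0.06, but this call was lost in 13 of 22 fits that left out 1 library and without replicates 1 to 4 (edgeR adjusted p = 0.0734). Slc30a1, the plasma membrane exporter that zinc itself is known to induce, had -0.16 ± 0.15 and was not called. The zinc-binding metallothioneins Mt1 and Mt2 were not called, at 0.09 ± 0.19 and -0.14 ± 0.20, and Mtf1, the zinc-sensing transcription factor of these genes, was called lower by 0.26 ± 0.09. The call of Mtf1 was lost without replicates 1 to 4 (edgeR adjusted p = 0.0903) and with alike libraries summed (0.108), and its groups overlapped.

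For other metals, the iron carrier Slc11a2 (DMT1) rose by 0.18 ± 0.06 and the heme carrier Slc48a1 fell by 0.23 ± 0.07. Without replicates 1 to 4 Slc11a2 was not called (edgeR adjusted p = 0.160). The copper carriers Slc31a1 and Slc31a2 and the magnesium carriers Slc41a1 and Slc41a2 were not called, with changes between -0.08 and 0.13. The transferrin receptor Tfrc and the ferritin genes Fth1 and Ftl1 were not called, with changes between -0.10 and 0.12, and the iron regulatory protein Ireb2 was called higher by 0.25 ± 0.10 (edgeR adjusted p = 0.0474). Without replicates 1 to 4 Ireb2 was not called (0.149), nor with alike libraries summed (0.0598).

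Amino acid and peptide carriers numbered 17, with 3 called higher and 4 lower, or 41.2% against 31.5% of all genes tested. Their median was -0.01. Slc15a3 (chr19:10839727-10859362), which exports histidine and small peptides from endosomes and lysosomes, changed most. It had 14.9, 24.4 and 45.4 CPM in calcitriol libraries and 37.4, 58.6 and 86.4 CPM in vehicle libraries (lowest, median, highest). Replicates 1 and 2 were the highest of both groups, and leaving out replicates 1 to 4 gave the same size. The log2 change was -1.22 ± 0.16 (edgeR adjusted p = 1.98e-06). On the opposite strand, Tmem132a shares 1541 of its exon bases, 28.1% of its length, and was called lower as well, by 0.59 ± 0.17. Slc15a4, the other carrier of this kind, had -0.18 ± 0.08 and was not called.

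Family 1 is represented by a pair of neutral amino acid carriers, of which 1 was called. Slc1a4 (ASCT1; chr11:20302180-20332713), a carrier of serine and alanine, had 6.07, 8.27 and 10.9 CPM in calcitriol libraries against 12.4, 15.3 and 20.8 CPM in vehicle libraries, with no overlap. It fell by 0.92 ± 0.11 (edgeR adjusted p = 3.17e-07). Slc1a5 (ASCT2), the glutamine carrier and the most abundant of the class per length, had 100.1, 153 and 204 CPM in calcitriol libraries against 147, 175 and 227 CPM in vehicle libraries. Its change of -0.22 ± 0.09 was not called (edgeR adjusted p = 0.0715).

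The cationic amino acid carriers of family 7, which bring in arginine and lysine, went different ways. Slc7a3 (CAT3) had 13.7, 18.0 and 24.6 CPM in calcitriol libraries against 8.24, 10.4 and 20.3 CPM in vehicle libraries, with replicates 1 to 4 highest in each group. It rose by 0.60 ± 0.16 (edgeR adjusted p = 0.00577), and by 0.76 without replicates 1 to 4. With libraries that resembled each other summed, it was not called (edgeR adjusted p = 0.0573). Slc7a1 (CAT1) fell by 0.44 ± 0.09, and Slc7a2 had -0.10 ± 0.11 and was not called. The proton-coupled carrier Slc36a4 rose by 0.35 ± 0.07 and the glutamine carrier Slc38a1 by 0.19 ± 0.06, while Slc38a2 and the lysosomal arginine sensor Slc38a9 had -0.10 ± 0.08 and 0.20 ± 0.08 and were not called. Slc43a3, grouped here by family number although it is known to carry purine bases, fell by 0.48 ± 0.09.

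Among the transporters left out by name, Slc3a2, the heavy chain shared by several amino acid carriers, rose by 0.33 ± 0.08, while its light chain Slc7a5 fell by 0.31 ± 0.08. The lactate carrier Slc16a1 fell by 0.17 ± 0.06, and was not called without replicates 1 and 2 of both groups (edgeR adjusted p = 0.0544). The glucose carriers Slc2a1 and Slc2a3, the lactate carrier Slc16a3 and the cystine carrier Slc7a11 were not called, with changes between -0.15 and 0.23.

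Mitochondrial carriers of family 25 were the largest class, with 30 genes, 4 called higher and 4 lower (26.7%, against 31.5% of all genes tested). The ADP/ATP carrier Slc25a5 had the highest level per length of all 148 genes, 344 CPM per kb of exon with calcitriol and 362 with vehicle. It measured 516, 570 and 627 CPM in calcitriol libraries against 568, 594 and 639 CPM in vehicle libraries, and its change of -0.08 ± 0.04 was not called. Its relative Slc25a4 had 0.03 ± 0.06 and was not called. Both have near-identical pseudogene copies, so their counts are uncertain. The largest changes were those of scarce or mid-level carriers. Slc25a33, a pyrimidine nucleotide carrier, had 3.72, 5.43 and 8.05 CPM in calcitriol libraries against 5.63, 7.20 and 11.1 CPM in vehicle libraries and fell by 0.52 ± 0.13. Slc25a40, which brings glutathione into mitochondria, had 47.2, 55.5 and 73.3 CPM in calcitriol libraries against 41.0, 46.2 and 51.5 CPM in vehicle libraries and rose by 0.30 ± 0.06. For Slc25a40, 10 of 11 calcitriol libraries lay above every vehicle library.

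The citrate carrier Slc25a1, which supplies citrate for fatty acid synthesis, fell by 0.28 ± 0.05, the iron carrier mitoferrin Slc25a37 by 0.32 ± 0.07 and the aspartate/glutamate carrier Slc25a12 by 0.18 ± 0.06. The carnitine/acylcarnitine carrier Slc25a20 rose by 0.15 ± 0.05, Slc25a44, a carrier of branched-chain amino acids, by 0.22 ± 0.08 and Slc25a45 by 0.25 ± 0.09. Leaving out 1 library ended the call of Slc25a44 in 15 of 22 fits and that of Slc25a45 in 12, and Slc25a44 was not called without replicates 1 and 2 of both groups. The phosphate carrier Slc25a3, the oxoglutarate carrier Slc25a11 and the glutathione carrier Slc25a39 were not called, with changes between -0.06 and 0.06.

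The class of nucleotide sugar and acetyl-CoA carriers, drawn by family number, held 22 genes. In it 3 were called higher and 2 lower, or 22.7% against 31.5% of all genes tested. Slc35e1, a Golgi family member whose substrate is not established, had 108, 135 and 144 CPM in calcitriol libraries against 82.6, 95.8 and 109 CPM in vehicle libraries. In 10 of 11 calcitriol libraries it was above every vehicle library, and it rose by 0.47 ± 0.06 (edgeR adjusted p = 1.28e-07). Slc35f6 rose by 0.44 ± 0.08 and Slc35f2 by 0.39 ± 0.09, and the substrates of both were not examined. The 3 rises can therefore not be read as rises of nucleotide sugar carriers. Slc35a1, which brings CMP-sialic acid into the Golgi, had 20.1, 22.9 and 24.7 CPM in calcitriol libraries against 21.3, 28.5 and 31.0 CPM in vehicle libraries and fell by 0.31 ± 0.07. The acetyl-CoA carrier Slc33a1 fell by 0.21 ± 0.06. The UDP-galactose carrier Slc35a2 and the sulfate donor carrier Slc35b2 were not called, at -0.07 ± 0.11 and -0.11 ± 0.06.

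**Figure D4:**
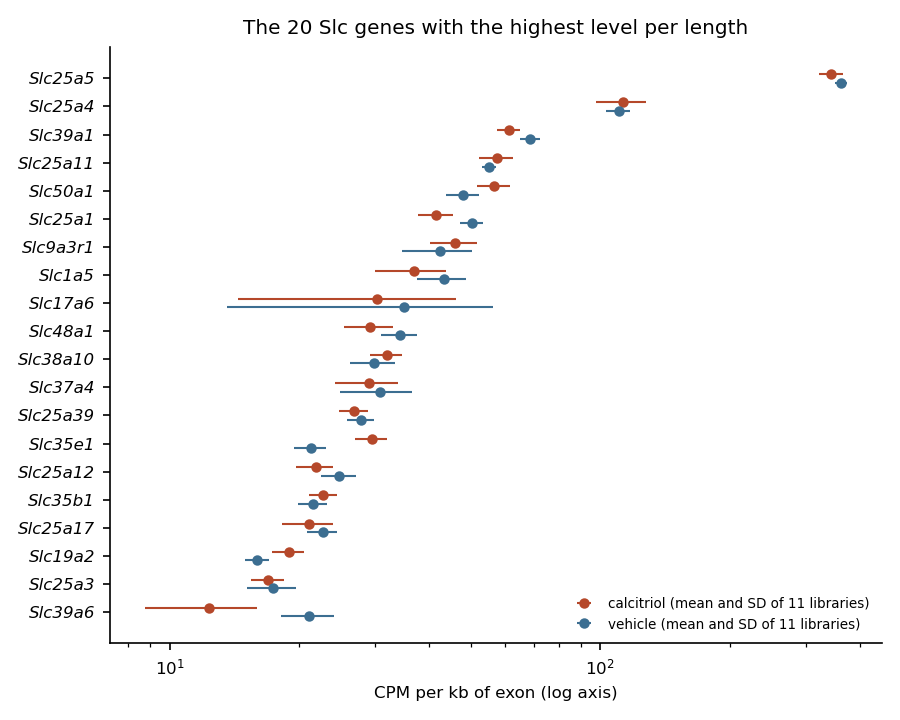
Level of the 20 Slc genes with the highest CPM per kb of exon, as mean and SD of 11 calcitriol (red, upper) and 11 vehicle (blue, lower) libraries, on a log axis. Slc25a5 leads at 344 CPM per kb with calcitriol and 362 with vehicle, and Slc17a6 has the widest spread within the groups.

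Of 5 carriers of phosphate, sulfate and other anions, 2 were called, both lower, or 40.0% against 31.5% of all genes tested. This is not a like comparison, since Slc26a10 averaged at least 5 CPM in 1 group only. Slc26a10 (chr10:127171393-127180645) had the largest fall of the 148 genes. Its levels were 3.52, 4.08 and 8.27 CPM in calcitriol libraries against 5.76, 14.1 and 18.2 CPM in vehicle libraries (lowest, median, highest). The vehicle libraries fell into separate ranges, with replicates 1 to 4 at 5.76 to 10.3 CPM and the other 7 at 13.6 to 18.2 CPM, while the corresponding calcitriol libraries had 3.87 to 8.27 and 3.52 to 5.69 CPM. The log2 change was -1.36 ± 0.20 (edgeR adjusted p = 8.08e-06), and -1.88 without replicates 1 to 4. It shares 715 exon bases, 17.8% of its length, with B4galnt1 on the opposite strand, which was not called at 0.01 ± 0.08.

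Slc13a3 (NaDC3; chr2:165405028-165473230), a sodium-coupled importer of dicarboxylates such as succinate, had 11.1, 17.1 and 37.0 CPM in calcitriol libraries against 23.2, 35.3 and 68.1 CPM in vehicle libraries. Replicates 1 and 2 were again the highest in both groups, at 30.2 to 37.0 CPM with calcitriol and 58.8 to 68.1 CPM with vehicle. The log2 change was -1.08 ± 0.22 (edgeR adjusted p = 0.000636), and -1.13 without replicates 1 to 4. The phosphate importer Slc20a1, the most abundant of the class per length, had 58.1, 63.8 and 87.7 CPM in calcitriol libraries against 66.2, 70.7 and 104 CPM in vehicle libraries, and its change of -0.20 ± 0.08 was not called. Slc20a2 and the sulfate carrier Slc26a2 were not called, at 0.05 ± 0.09 and 0.12 ± 0.07.

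Among 3 nucleoside carriers, 1 was called, against 31.5% of all genes tested. The lysosomal Slc29a3 (ENT3), which averaged at least 5 CPM with vehicle only, was called lower. It had 2.19, 3.65 and 6.44 CPM in calcitriol libraries against 4.52, 5.98 and 10.8 CPM in vehicle libraries, and 9 of 11 calcitriol libraries lay below every vehicle library. The log2 change was -0.89 ± 0.18 (edgeR adjusted p = 0.000246). Vehicle replicates 1 to 4 alone held the highest values, 8.75 to 10.8 CPM, and without replicates 1 to 4 of both groups the change was smaller, -0.53, and still called (edgeR adjusted p = 0.0140). The plasma membrane carrier Slc29a1 (ENT1) had 38.6, 51.9 and 60.7 CPM in calcitriol libraries against 44.4, 59.1 and 75.7 CPM in vehicle libraries and was not called at -0.17 ± 0.08. Slc28a2 had 0.14 ± 0.08 and was not called.

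Of 5 vitamin carriers, 2 were called higher, as were 16.1% of all genes tested. The vitamin C carrier Slc23a2 had 13.0, 15.9 and 25.8 CPM in calcitriol libraries against 9.66, 12.7 and 16.6 CPM in vehicle libraries, with wide overlap, and rose by 0.33 ± 0.10. Without replicates 1 and 2 of both groups the change of Slc23a2 was 0.24 and not called (edgeR adjusted p = 0.0537), and calcitriol replicate 2 held its highest value. The thiamine carrier Slc19a2 had 63.5, 72.5 and 84.1 CPM in calcitriol libraries against 54.9, 63.0 and 65.2 CPM in vehicle libraries, with 9 of 11 calcitriol libraries above every vehicle library, and rose by 0.25 ± 0.05. The reduced folate carrier Slc19a1, the riboflavin carrier Slc52a2 and the biotin and pantothenate carrier Slc5a6 were not called, at -0.29 ± 0.12, -0.14 ± 0.14 and -0.30 ± 0.15. Without replicates 1 to 4, Slc19a1 and Slc5a6 were called lower, with changes of -0.34 and -0.53 and edgeR adjusted p of 0.0223 and 0.0124.

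Carriers of lipids, choline and carnitine numbered 7, with 2 called, both higher, or 28.6% against 31.5% of all genes tested. The choline carrier Slc44a2 had 118, 128 and 144 CPM in calcitriol libraries against 100.0, 110 and 127 CPM in vehicle libraries and rose by 0.24 ± 0.05. Slc10a3, a relative of the bile acid carriers, had 9.38, 14.2 and 18.2 CPM in calcitriol libraries against 8.96, 11.6 and 14.3 CPM in vehicle libraries and rose by 0.33 ± 0.11, a call lost with alike libraries summed (edgeR adjusted p = 0.129). The fatty acid transport proteins Slc27a1 and Slc27a4, the choline carrier Slc44a1 and the carnitine carrier Slc22a5 were not called, with changes between -0.10 and 0.18.

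The remaining 7 carriers of osmolytes and organic ions had 2 called higher and 1 lower, or 42.9% against 31.5% of all genes tested. None of them was called with alike libraries summed. Slc17a9, which loads ATP into vesicles, had 42.3, 48.0 and 70.5 CPM in calcitriol libraries against 35.0, 40.7 and 49.3 CPM in vehicle libraries and rose by 0.34 ± 0.09, or by 0.20 without replicates 1 to 4. The taurine carrier Slc6a6 had 62.3, 86.3 and 97.6 CPM in calcitriol libraries against 79.8, 92.8 and 115 CPM in vehicle libraries and fell by 0.19 ± 0.07. That call was lost in 6 of 22 fits that left out 1 library, and the change was -0.07 and not called without replicates 1 to 4. Slc16a6 rose by 0.17 ± 0.06, a call lost in 10 of those 22 fits and without replicates 1 to 4 (edgeR adjusted p = 0.212). The scaffold Slc9a3r1, the most abundant of the 4 genes that are not carriers per length, had 68.3, 92.1 and 108 CPM in calcitriol libraries against 60.7, 83.6 and 106 CPM in vehicle libraries, and its change of 0.11 ± 0.09 was not called, nor was any other of the 4.

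Slc17a6, best known as the vesicular glutamate transporter VGLUT2 of neurons, was the most abundant of the osmolyte and organic ion class per length and the most variable of the 148 genes within groups. It had 79.3, 136 and 341 CPM in calcitriol libraries against 92.9, 114 and 354 CPM in vehicle libraries. Calcitriol replicates 1 and 2 had 320.2 to 341 CPM and the other 9 had at most 151 CPM, while vehicle replicates 1 to 4 had 290.3 to 354 CPM and the other 7 at most 116 CPM. Its within-group SD was 0.74 on the log2 scale, against a median of 0.20 over the 148 genes. The log2 change of -0.21 ± 0.32 was not called, and without replicates 1 to 4 it was 0.18, also not called (edgeR adjusted p = 0.271).

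Next in spread within groups were Slc13a3, with an SD of 0.53, Slc30a2 with 0.50, Slc26a10 with 0.49, Slc41a2 with 0.40, Slc29a3 with 0.40, Slc15a3 with 0.39 and Slc7a3 with 0.39. Of the 6 called genes with a change of at least 1, 4 were therefore among the 8 most variable. Replicates 1 to 4 of both groups lay high for Slc13a3 and Slc7a3 and low in the vehicle group for Slc26a10. For Slc29a3 the vehicle replicates 1 to 4 lay high and the calcitriol ones did not. The part of library differences in these results was not tested beyond leaving those libraries out.

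**Figure D5:**
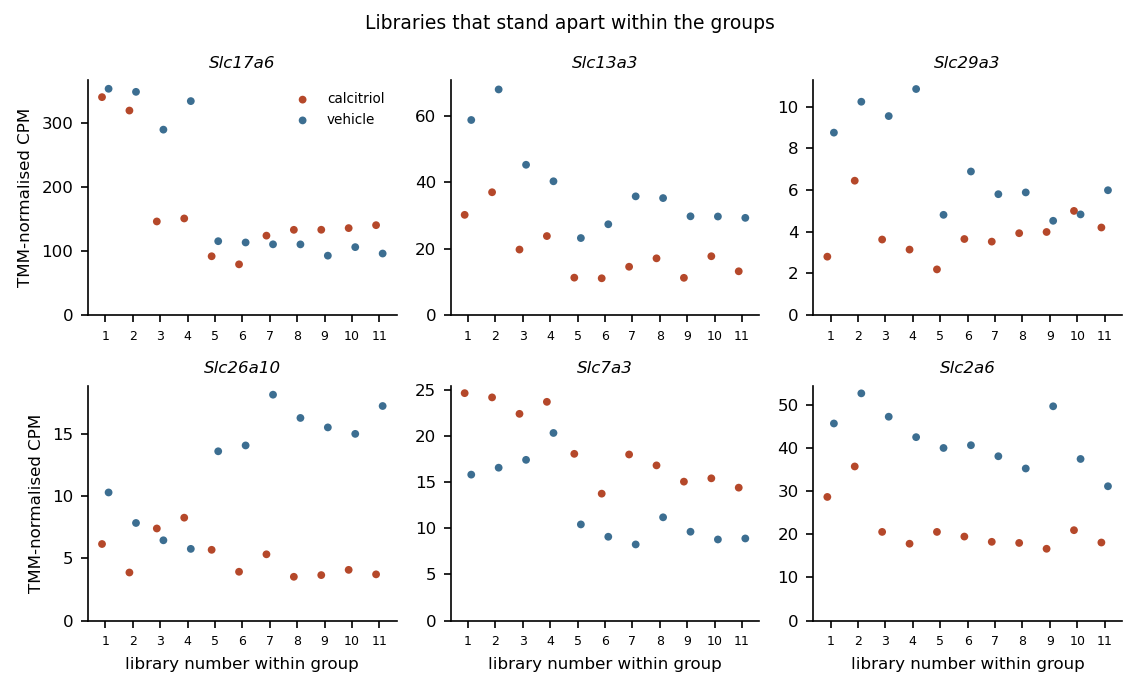
TMM-normalised CPM (vertical axes, each from 0) of 6 genes by library number within the calcitriol (red) and vehicle (blue) groups. The numbers follow the order of the record, and the labels pair no libraries. Slc17a6 lies above 290 CPM in calcitriol replicates 1 and 2 and in vehicle replicates 1 to 4 and at most at 151 CPM elsewhere, and Slc26a10 in vehicle libraries is lowest in replicates 1 to 4.

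Solute carriers known under other symbols were taken from a list of 38, of which 36 passed the filter on low counts, and 9 were called higher and 8 lower, 47.2%, against 31.5% of all genes, with a median of 0.01. Sfxn5, a mitochondrial sideroflexin, averaged 8.64 ± 2.16 CPM with calcitriol and 4.33 ± 1.17 CPM with vehicle, a log2 change of 0.96 ± 0.15 (edgeR adjusted p = 1.60e-05). Ank, which exports pyrophosphate and ATP, rose by 0.60 ± 0.11. The lipid carrier Mfsd2a was called higher by 0.33 ± 0.09, but had 0.12 without replicates 1 to 4 (edgeR adjusted p = 0.280) and was not called with alike libraries summed (0.0966). The organic anion carriers Slco3a1 and Slco4a1 fell. Slco3a1 averaged 35.9 ± 4.79 CPM with calcitriol and 68.9 ± 12.3 CPM with vehicle, a log2 change of -0.93 ± 0.09 (edgeR adjusted p = 4.98e-09), and Slco4a1 had -0.54 ± 0.07. The magnesium carrier Nipa1 fell by 0.67 ± 0.15. The heme or choline carrier Flvcr2, at 1.39 ± 0.528 CPM with calcitriol and 2.57 ± 1.14 CPM with vehicle, was called lower by 0.89 ± 0.26, but not without replicates 1 to 4, with -0.64 (edgeR adjusted p = 0.119). The mitochondrial pyruvate carrier subunit Mpc2 fell by 0.17 ± 0.06, while Mpc1 had -0.02 ± 0.07 and was not called. With alike libraries summed Mpc2, Chp1 and Atp1b3 were not called, with edgeR adjusted p of 0.103, 0.0717 and 0.0552. Emb, a partner of lactate carriers, averaged 326 ± 48.6 CPM with calcitriol and 248 ± 47.3 CPM with vehicle and rose by 0.40 ± 0.10, and the partner Bsg had -0.09 ± 0.09 and was not called.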

How the data were processed

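RNA of TH2 cells was sequenced as 22 libraries, 11 with calcitriol and 11 with vehicle. Whether each library came from a culture of its own is not in the labels. The library method was strand-specific, for total RNA with globin depletion, per the labels' protocols. The authors deposited 1 table of raw counts per Ensembl gene, with 1 column per library. STAR 2.7.10a, HTSeq 0.13.5 and the build GRCm38 are named in the submitters' processing notes. What each was used for, how strand was treated and which annotation was counted is not given in the sources used here, so reads of overlapping genes cannot be told apart with certainty (45 of the 148 genes share exon bases with another gene). Symbols, exon lengths and coordinates came from GENCODE M21 and promoter bases from RefSeq on GRCm38.p6.

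Library totals were 3214171 to 20258430 counts with a median of 7504710, and these limit the precision of scarce genes. Genes were filtered with filterByExpr in edgeR 4.0.16 (R 4.3.3), which kept 11905 genes and all 148 Slc genes, scaled with TMM and tested with the robust quasi-likelihood F test without covariates, with Benjamini-Hochberg adjustment over all genes tested and a threshold of 0.05. "Called" means past it. Levels are TMM-normalised CPM, log2 changes are calcitriol over vehicle with SE, and CPM per kb divides by the length of the merged exons. The test was tried on simulated counts. Alternatives were DESeq2 1.42.0, limma-voom (limma 3.58.1), other scalings and filters, a fold threshold, libraries left out, and the libraries of a group that correlated best with each other summed, which left 6 samples a group. Leaving out replicates 1 to 4 was chosen after the data had been seen.

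Substrate classes follow the Slc family number, with single genes moved by known function. Named by library were, in each class, the called genes with the largest rise and fall and the most abundant gene per length, and every called gene with a log2 change of at least 1. The genes, classes and lists were chosen with earlier results of these data known, so none of them is independent support. Correlations between genes across libraries are not given, since the libraries fall into sets. A few genes are counted in the totals and not reported here by name.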

Additional observations from a re-analysis of the deposited data

How the results depend on the processing

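No paired analysis was made, because the labels give no replicate number, mouse or culture by which to pair libraries, and the numbers used here follow the order of the record. Same-numbered libraries of both groups had scores of the same sign on the first component of the deviations from the group means. Whether they share a source was not tested, and the unpaired test takes no account of it. Genes not called here could therefore differ in a paired test. The 57 called genes became 57 with DESeq2's size factors in edgeR, 60 with library totals only, 59 with DESeq2 and 59 with limma-voom. There were 57 with at least 10 counts in 11 libraries and 47 with no filter. Without replicates 1 and 2 of both groups 52 were called, against 29.2% of all genes, and without replicates 1 to 4 58, against 30.1%. With all libraries the share of all genes was 31.5%. With library totals only, 11.1% of all genes were called higher and 24.2% lower. For the other fits of this list the share of all genes is not given here. Leaving out 1 library at a time gave 54 to 59 called genes, 26 to 31 higher and 26 to 30 lower, and 50 of the 57 were called in every such fit. Tested against a fold of 1.2, which 9.79% of all genes passed, 18 were called, 5 higher and 13 lower. With alike libraries summed, when 17.9% of all genes were called, 39 were called, 17 higher and 22 lower, in a test with fewer samples. Of the 57, all were called by DESeq2 and by limma-voom. Groups that do not overlap numbered 6 with all 22 libraries, where 4.36% of all genes tested were apart. They numbered 6 to 8 when 1 library was left out, 11 without replicates 1 and 2 and 25 without replicates 1 to 4. Fewer libraries have to stay apart there, and the share of all genes was not taken for these smaller sets of libraries. These counts can therefore not be read as particular to the Slc genes. With other limits on the mean level, 36.5% of 170 genes (at least 2 CPM), 39.2% of 130 (at least 10 CPM) and 36.6% of 142 (at least 5 CPM in both groups) were called. Over 992 settings of the genes named by library, 952 kept direction and side of the threshold, 31 lost the call, 8 gained one and 1 reversed, that of Slc17a6 at 0.18 without replicates 1 to 4, where the cause was not tested. Of 25 such genes with a call, 11 kept it under every setting. Depth limits the scarcest genes most, as for Slc30a2 and Slc29a3 at a few CPM.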
